A study of Mus musculus with 15 samples.

Results

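The proteasome is the protease complex that degrades ubiquitin-tagged proteins, and the genes described here are those for its numbered subunits in mouse liver. Members were the protein-coding genes of the GENCODE M21 annotation whose symbol is Psma, Psmb, Psmc or Psmd followed by a number, a rule that uses no measured value. It took 39 of 25731 annotated genes, and all 39 were among the 13967 genes with enough reads to test. Total RNA from livers of C57BL/6 mice, an inbred laboratory strain, was sequenced in 15 libraries. Of these, 5 were from mice on chow, 5 from mice on a high-fat diet and 5 from mice on a ketogenic diet, which holds little carbohydrate and raises ketone bodies. Each diet was fed for 3 days, and the high-fat and ketogenic diets were given at 12 weeks of age. No genetic change was labelled in any group. The sources used here do not state the age of the chow mice, the sex of the mice or what the diets contained. The labels do not say that each library came from its own mouse. Each was taken as 1 mouse, and the tests set diet differences against the spread between these samples. Libraries are named by diet (KD, ketogenic; HFD, high-fat; CD, chow) and label number, and the numbers pair no samples.

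The core particle of the proteasome is a barrel of stacked rings. Outer rings of alpha subunits (Psma genes) gate the entry, and inner rings of beta subunits (Psmb genes) hold the catalytic sites, which sit on Psmb5, Psmb6 and Psmb7. In immune cells and after interferon, Psmb8, Psmb9 and Psmb10 replace those catalytic subunits to form the immunoproteasome, which favours peptides for MHC class I. A regulatory particle caps the barrel: a ring of ATPases (Psmc genes) unfolds substrates, and non-ATPase subunits (Psmd genes) bind and remove ubiquitin and form the lid. Psmd5, Psmd9 and Psmd10 are chaperones that help assemble the ATPase ring and are not part of the finished particle. The transcription factor Nfe2l1, cut by the protease Ddi2, drives proteasome genes together when proteasome capacity is short.

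Promoter sequences are shown for 5 members that stand for the patterns below: Psma5, with the smallest adjusted p on the high-fat diet, Psmd9, which rose on the ketogenic diet, the catalytic subunits Psmb5 and Psmb6, and the immunoproteasome subunit Psmb8. RefSeq windows (build GRCm38.p6, 250 bases before to 50 after the transcription start) were found for 32 of the 39 members. Psma5 lies at chr3:108256926-108279974, Psmd9 at chr5:123169413-123250131, Psmb6 at chr11:70525367-70527858, Psmb5 at chr14:54614119-54618022 and Psmb8 at chr17:34197721-34201454 in GENCODE M21. Psmb9 lies on the same chromosome as Psmb8, at chr17:34181987-34187764 on the opposite strand. The printed windows span chr3:108256676-108256975, plus strand, chr5:123227940-123228239, plus strand, chr11:70525107-70525406, plus strand, chr14:54617946-54618245, minus strand and chr17:34197945-34198244, plus strand, in that order. Each is written 5′ to 3′ on the strand of its gene. Capitals mark matches to TGACNNNGC, the antioxidant-response-like letters that Nfe2l1 and its partners can bind, and to GAAANNGAAA, interferon-response-like letters. Both strands were searched for both motifs.
Psma5: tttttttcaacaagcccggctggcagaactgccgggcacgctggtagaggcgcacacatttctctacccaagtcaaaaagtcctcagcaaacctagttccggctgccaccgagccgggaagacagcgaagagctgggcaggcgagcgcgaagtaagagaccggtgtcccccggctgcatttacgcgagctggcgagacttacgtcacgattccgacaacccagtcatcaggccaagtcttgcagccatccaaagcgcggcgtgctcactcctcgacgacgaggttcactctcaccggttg
Psmd9: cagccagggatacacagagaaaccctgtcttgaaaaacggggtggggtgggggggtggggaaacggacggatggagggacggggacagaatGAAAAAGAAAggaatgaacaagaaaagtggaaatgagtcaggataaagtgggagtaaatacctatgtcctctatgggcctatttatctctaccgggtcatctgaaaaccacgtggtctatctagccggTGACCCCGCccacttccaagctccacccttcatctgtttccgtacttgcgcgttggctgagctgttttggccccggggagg
Psmb6: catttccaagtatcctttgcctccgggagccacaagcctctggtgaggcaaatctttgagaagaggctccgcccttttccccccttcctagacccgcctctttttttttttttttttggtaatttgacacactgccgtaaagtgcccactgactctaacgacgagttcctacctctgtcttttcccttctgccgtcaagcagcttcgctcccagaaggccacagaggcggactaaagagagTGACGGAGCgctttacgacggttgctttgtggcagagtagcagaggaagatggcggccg
Psmb5: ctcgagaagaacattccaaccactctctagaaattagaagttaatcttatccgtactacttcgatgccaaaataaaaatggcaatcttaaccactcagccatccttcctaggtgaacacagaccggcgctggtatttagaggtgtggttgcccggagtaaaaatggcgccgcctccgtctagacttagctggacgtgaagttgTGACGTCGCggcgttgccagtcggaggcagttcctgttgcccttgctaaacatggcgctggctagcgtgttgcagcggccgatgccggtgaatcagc
Psmb8: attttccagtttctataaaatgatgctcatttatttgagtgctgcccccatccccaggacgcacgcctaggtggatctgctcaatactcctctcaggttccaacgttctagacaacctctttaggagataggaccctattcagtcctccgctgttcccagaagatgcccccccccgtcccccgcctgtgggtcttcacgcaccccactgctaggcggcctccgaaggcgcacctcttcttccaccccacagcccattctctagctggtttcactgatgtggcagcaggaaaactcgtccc
Psmb5 holds TGACGTCGC, with its first base at position -47 from the start, Psmb6 holds TGACGGAGC at -9, and Psmd9 holds TGACCCCGC at -31 and GAAAAAGAAA at -159. The Psma5 and Psmb8 windows hold neither motif. The printed Psmb8 and Psmd9 windows lie within the GENCODE M21 spans of their genes and hold no bases before those spans. TGACNNNGC was found in 5 of 34 member windows (14.7%; Psmb5, Psmb6, Psmc6, Psmd9 and Psmd12), against 12.4% of all 32841 windows. GAAANNGAAA was found in 3 (8.82%; Psmb3, Psmd4 and Psmd9), against 3.44% of all windows. The letters CCAAT, on either strand, were found in 13 (38.2%), against 37.4%. These matches describe the letters in the windows and show no binding.

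Depth ran from 30121672 to 50914494 estimated reads per library. Apart from Psma8 and Psmb11, each member had between 132 and 7237 reads in every library. Values below in CPM are a gene's reads on a common scale of library size, adjusted by TMM, and compare 1 gene between libraries. Levels of different genes are compared only in TPM, which also divides by transcript length. Hepatocyte markers (Alb, Ttr, Apob, Cps1, Hnf4a and Apoa1) summed to 72038 to 86358 CPM on chow, 66637 to 78178 CPM on the high-fat diet and 82570 to 91039 CPM on the ketogenic diet. In whole liver, fewer cells of a type and less RNA per cell cannot be told apart.

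On chow the subunits of the finished constitutive proteasome, leaving out the tissue-restricted Psma8 and Psmb11, lay between 31.3 and 168 TPM. The highest was Psma3, an alpha subunit, at 168 ± 7.42 TPM (SD, n = 5, as for all chow levels here). Next came Psmb4, a non-catalytic beta subunit, at 131 ± 6.61 TPM, and Psmc1 (Rpt2), an ATPase, at 126 ± 7.88 TPM, whose intervals of 1 SD overlapped. Among the constitutive catalytic subunits Psmb7 (trypsin-like site) had 104 ± 5.18 TPM, Psmb6 (caspase-like site) 90.6 ± 4.02 TPM and Psmb5 (chymotrypsin-like site) 62.9 ± 3.94 TPM. Psmd3 (Rpn3), at 31.3 ± 5.47 TPM, was the lowest of them. The immunoproteasome subunits were lower, with Psmb10 at 19.5 ± 3.29 TPM, Psmb8 at 13.6 ± 2.22 TPM and Psmb9 at 8.39 ± 1.97 TPM. The chaperones of the ATPase ring were low too, Psmd5 at 21.7 ± 1.82 TPM, Psmd9 at 14.8 ± 2.93 TPM and Psmd10 at 6.30 ± 0.566 TPM. Psma8, a form known from testis, had 0.391 ± 0.190 TPM, and Psmb11, a form known from thymus, 0.126 ± 0.0384 TPM. These 2 genes had 9.22 to 45.0 reads per library, too few for their diet differences to be read.

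**Figure D1:**
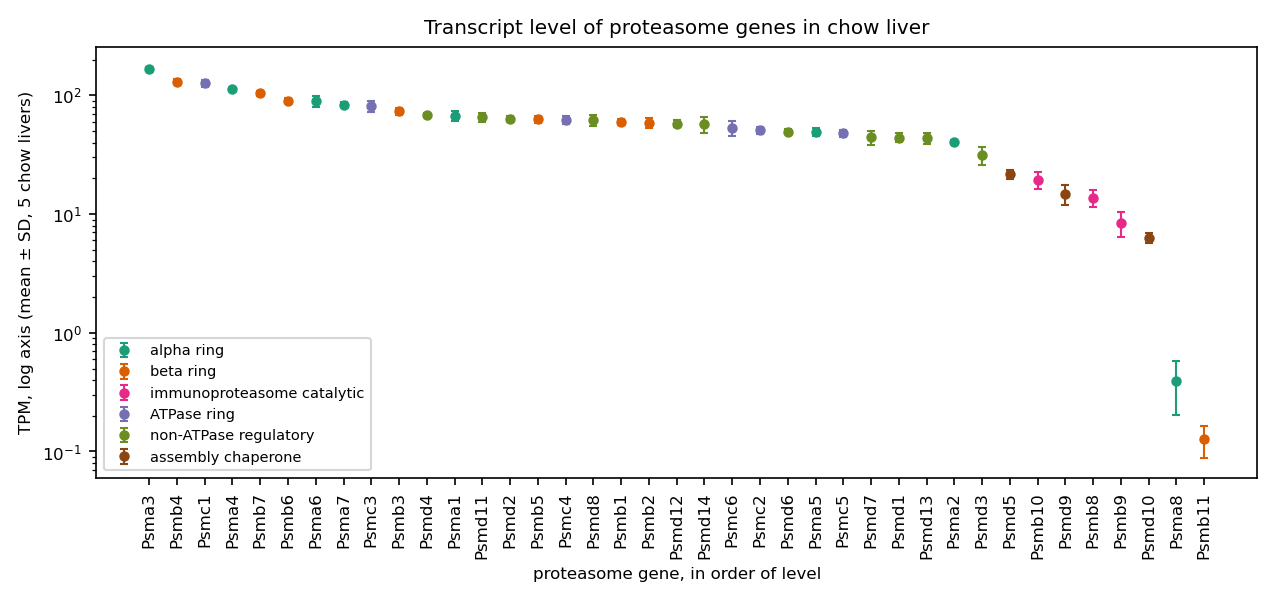
Level of each proteasome gene in the 5 chow libraries, in TPM on a log axis, as a point at the mean with an SD bar, ordered by mean and coloured by the role of the subunit. Psma3 leads at 168 TPM, the 3 immunoproteasome subunits lie between 8.39 and 19.5 TPM, and Psma8 and Psmb11 lie below 1 TPM.

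After 3 days of the high-fat diet many proteasome genes were lower than on chow. Of the 39 members 20 fell, 0 rose and 19 did not pass edgeR's quasi-likelihood test (Benjamini-Hochberg adjusted p under 0.05 over all 13967 genes, the threshold throughout). Among all genes tested 7.32% fell and 8.3% rose. At an unadjusted p under 0.05 in edgeR 29 members were lower and 1 was higher, and DESeq2 called 25 fallen and 0 risen. The members' median log2 difference was -0.20, a change of -13.1%, against 0.014 over all genes, and 35 of 39 lay below 0 (47.4% of all genes). In 12 members every high-fat library lay below every chow library, which held for 4.81% of all genes. The member median was between -0.24 and -0.19 under all 24 alternative settings. With limma on log2(TPM + 1) the number that fell dropped to 4, namely Psma4, Psma5, Psmb6 and Psmc1. Rises made up 53.1% of all calls among the 13967 genes in this comparison and 25.3% on log2(TPM + 1). Differences here are log2, high-fat over chow, ± SE, and adjusted p-values are edgeR's.

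In the core particle, 6 of 8 alpha subunits and 3 of 8 beta subunits fell. Psma5, an alpha ring subunit, stood at 57.8, 49.5, 53.8, 54.9 and 56.0 CPM on chow, at 45.5, 39.8, 40.2, 42.8 and 36.9 CPM on the high-fat diet and at 48.8, 45.9, 46.5, 48.0 and 51.1 CPM on the ketogenic diet. All 5 high-fat libraries lay below all 5 chow libraries, and the difference was -0.41 ± 0.061, adjusted p = 2.98e-04. Psma1, Psma2, Psma3, Psma4 and Psma6 fell by 0.24 to 0.34 on the log2 scale. With protein-coding transcripts alone Psma3 and Psmb5 did not pass. Psma7 did not pass (-0.13, adjusted p = 0.250). Psmb2, a non-catalytic beta subunit, stood at 46.0, 39.5, 41.5, 41.9 and 40.6 CPM on chow, at 35.5, 37.1, 34.6, 31.8 and 31.7 CPM on the high-fat diet and at 38.0, 37.1, 38.6, 39.0 and 41.0 CPM on the ketogenic diet. The high-fat and chow libraries did not overlap (-0.30 ± 0.058, adjusted p = 0.00245). The catalytic subunits Psmb6 (-0.31, adjusted p = 0.0216) and Psmb5 (-0.27, adjusted p = 0.0420) also fell. Psmb6 did not pass without HFD 12, HFD 14, CD 15 or CD 19 (adjusted p 0.0542 to 0.0647), nor Psmb5 without KD 4, HFD 11, HFD 12, HFD 14, CD 15 or CD 19 (adjusted p 0.0503 to 0.121). Psmb7 (-0.17, adjusted p = 0.120), Psmb1 (-0.16, adjusted p = 0.142), Psmb3 (-0.26, adjusted p = 0.0565) and Psmb4 (-0.24, adjusted p = 0.0522) did not pass. None of the 3 immunoproteasome subunits passed in edgeR or DESeq2 (1 lower at an unadjusted p under 0.05), and their values are given with the catalytic pairs.

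In the regulatory particle, 5 of 6 ATPases and 6 of 11 non-ATPase subunits fell. Psmc1 stood at 93.7, 93.1, 95.3, 97.7 and 96.0 CPM on chow, at 82.8, 79.7, 79.2, 76.5 and 78.7 CPM on the high-fat diet and at 88.3, 94.4, 91.7, 90.1 and 93.3 CPM on the ketogenic diet. The high-fat values lay below all chow values (-0.26 ± 0.045, adjusted p = 8.83e-04). Psmc2, the ATPase Rpt1, stood at 80.1, 74.2, 78.2, 79.4 and 84.3 CPM on chow, at 72.1, 66.9, 66.2, 65.0 and 64.9 CPM on the high-fat diet and at 74.4, 74.7, 73.6, 73.3 and 78.0 CPM on the ketogenic diet. High-fat library 9 was the highest of its diet and still below the lowest chow library (-0.24 ± 0.050, adjusted p = 0.00352). Psmc4, Psmc6 and Psmc3 fell as well, Psmc3 by 0.18 on the log2 scale, while Psmc5 did not pass (-0.17, adjusted p = 0.0604). Psmc3 did not pass without HFD 10, HFD 11, HFD 12, HFD 14, CD 15, CD 16, CD 17, CD 18 or CD 19 (adjusted p 0.0539 to 0.0983). For Psmc6 (-0.29, adjusted p = 0.00667) the difference shrank to -0.10 (adjusted p = 0.310) once effective transcript length was an offset. A retained-intron transcript, Psmc6-203, held 7.04 ± 0.411% of the gene's reads in high-fat livers, against 4.54 ± 1.35% in chow livers (SD, n = 5).

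Psmd1, the scaffold subunit Rpn2, stood at 126, 121, 128, 128 and 134 CPM on chow, at 112, 111, 104, 105 and 108 CPM on the high-fat diet and at 133, 127, 132, 126 and 128 CPM on the ketogenic diet. Every high-fat library lay below every chow library (-0.24 ± 0.048, adjusted p = 0.00292), and ketogenic and chow libraries overlapped. Psmd4, the ubiquitin receptor Rpn10, stood at 74.3, 67.5, 72.4, 71.7 and 81.8 CPM on chow, at 62.6, 60.6, 59.7, 62.7 and 61.6 CPM on the high-fat diet and at 69.0, 69.6, 68.5, 70.7 and 71.6 CPM on the ketogenic diet. High-fat values again lay below every chow value (-0.26 ± 0.052, adjusted p = 0.00294). The lid subunits Psmd11 (-0.20, adjusted p = 0.00814), Psmd12 (-0.23, adjusted p = 0.00727) and Psmd14 (-0.29, adjusted p = 0.0108), the last of which is the deubiquitinase, fell without overlap. Psmd14 did not pass with the effective-length offset (-0.25, adjusted p = 0.0548), nor did Psmd7 and the ATPase Psmc3. With total-count scaling Psmd11, Psmd7 and Psmc3 did not pass. Psmd7 and Psmc3 were also lost without a filter on low counts. With only the 2 diets compared, Psmd7, Psmc3 and the core subunit Psmb5 did not pass. Psmd7 (-0.15, adjusted p = 0.0417) did not pass without KD 2, KD 3, KD 4, KD 8, HFD 10, HFD 11, HFD 12, HFD 14, CD 17 or CD 18 (adjusted p 0.0512 to 0.102). Psmd2, Psmd3, Psmd6, Psmd8 and Psmd13 lay between -0.18 and -0.088 and did not pass. None of the 3 ATPase-ring chaperones passed in edgeR or DESeq2 (1 higher at an unadjusted p under 0.05), with Psmd9 at 0.17, adjusted p = 0.115.

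**Figure D2:**
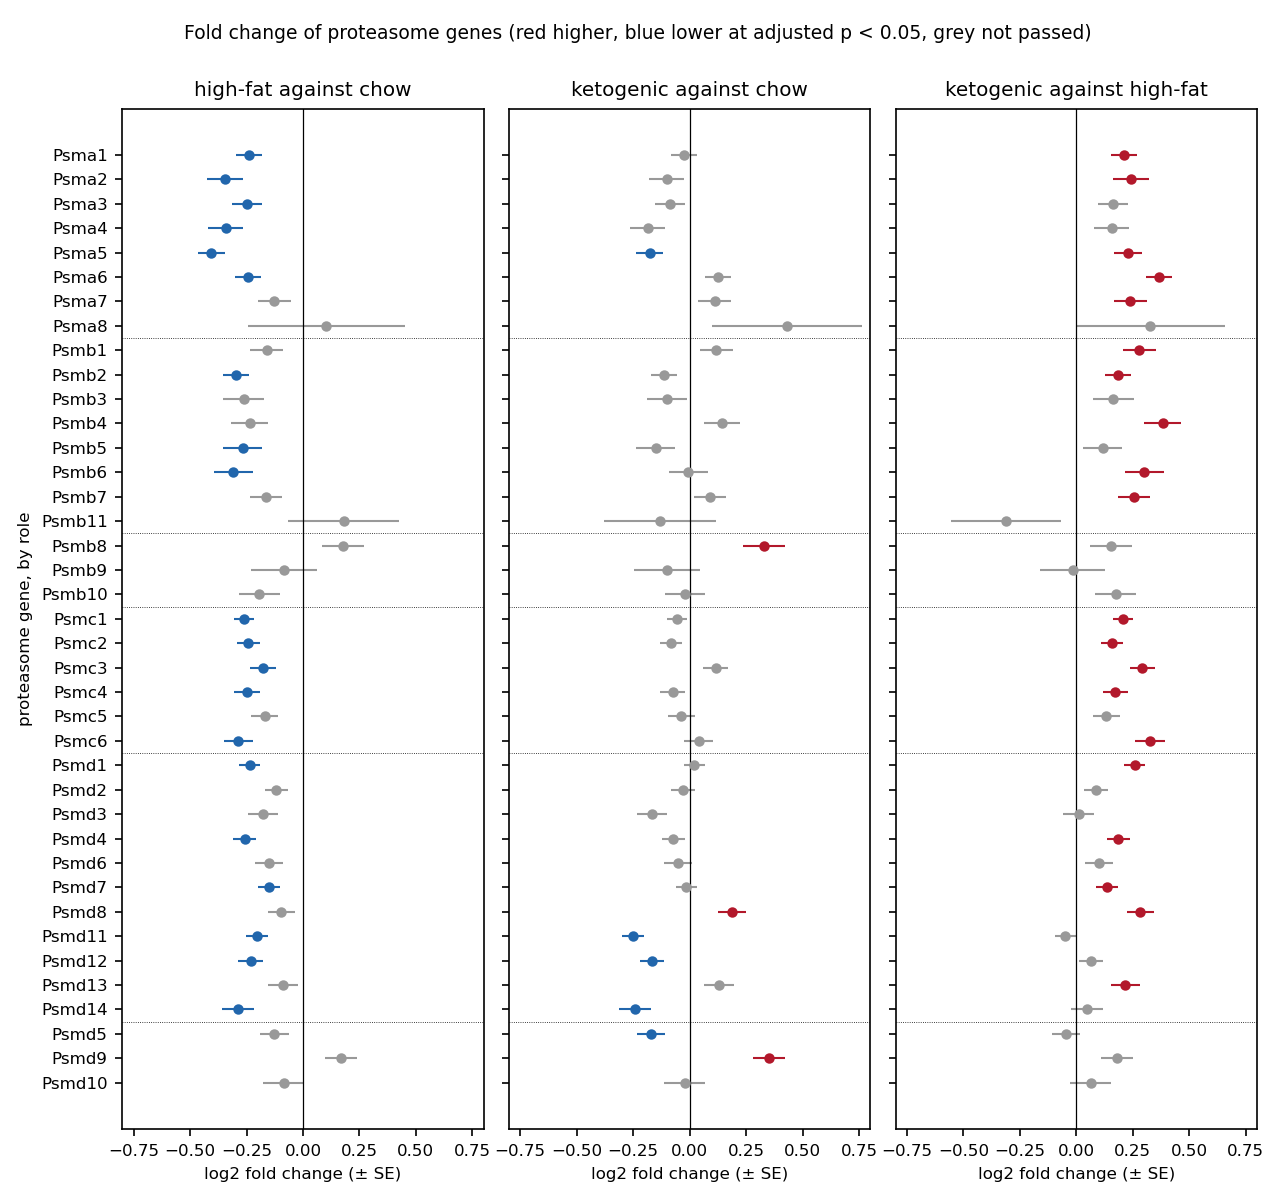
Log2 difference of each proteasome gene between diets with its SE, grouped by role, with 1 panel for each pair of diets, red and blue for genes that were higher or lower with adjusted p under 0.05, and grey for the others. Coloured points lie below 0 in the high-fat against chow panel (20 genes) and above 0 in the ketogenic against high-fat panel (20 genes), and on both sides of 0 in the ketogenic against chow panel (3 above, 5 below), where the balance changes with the scaling.

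The high-fat libraries were not alike. Over the 37 members with a mean of at least 2 CPM, the median log2 deviation from each gene's mean over all libraries was 0.028 in high-fat library 9. It was -0.090 in library 10, -0.14 in library 11, -0.21 in library 12 and -0.21 in library 14. Chow libraries had 0.12, -0.0033, 0.073, 0.074 and 0.13, and ketogenic libraries 0.074, 0.025, 0.027, 0.026 and 0.094. Library 9 had 22 of 37 members above their own mean, while the other high-fat libraries had 2 or 3. Over all genes tested the same median lay between -0.0061 and 0.015. Libraries 12 and 14 also had the lowest depth of their diet, 30327667 and 30121672 reads. Chow library 19 had 30190806 reads and the highest member deviation of all libraries. TMM factors, which multiply library size in CPM, were 0.931, 0.916, 0.970, 1.03 and 1.1 in high-fat libraries 9, 10, 11, 12 and 14. They ran from 0.942 to 1.01 on chow and from 0.991 to 1.07 on the ketogenic diet. A higher factor lowers CPM. With total-count scaling, which leaves these factors out, 19 members fell against chow. The part of depth and of these factors in the spread between high-fat libraries was not tested. Without library 9, 27 members fell against chow, and without library 12 or 14 the count was 16. Kupffer and myeloid markers (8 genes) summed to 137 to 168 CPM on chow, 102 to 174 CPM on the high-fat diet and 129 to 192 CPM on the ketogenic diet, and leukocyte markers (5 genes) to 20.4 to 24.5 CPM on chow, 16.2 to 26.5 CPM on the high-fat diet and 19.2 to 29.4 CPM on the ketogenic diet. None of these 13 genes passed edgeR's test between high-fat and chow, but at an unadjusted p under 0.05, and with DESeq2's adjusted p, 2 of each list were lower on the high-fat diet. No marker was at 0 in all libraries of a diet, and their part in the result was not tested. Among hepatocyte markers Cps1 rose and Ttr and Alb fell.

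**Figure D3:**
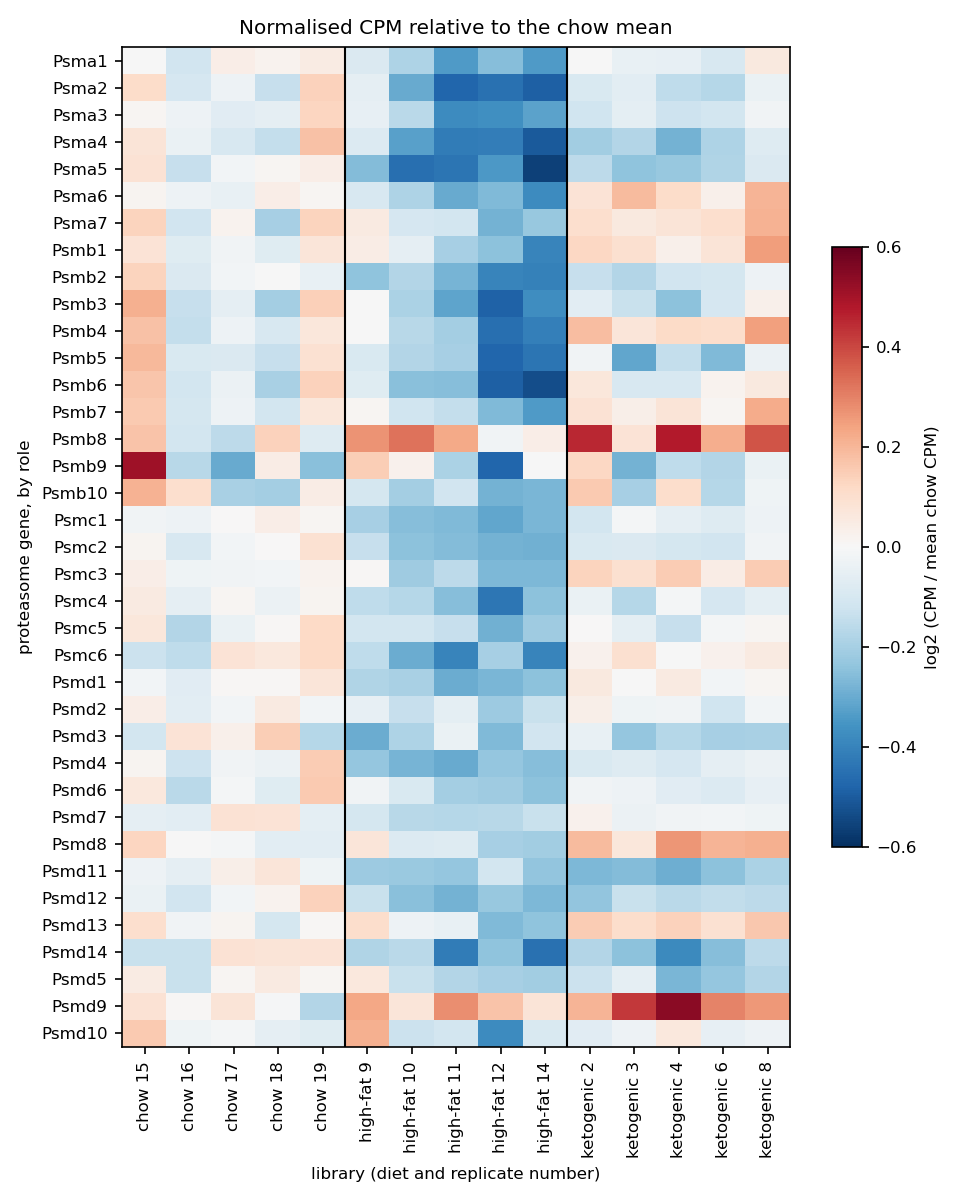
Log2 of CPM over the gene's mean chow CPM for each of 37 proteasome genes, with genes in rows by role and libraries in columns by diet. High-fat libraries 10, 11, 12 and 14 are mostly below 0. Against each gene's mean over all 15 libraries, which is not the reference drawn, these libraries had 2 or 3 members above. High-fat library 9 had 22.

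Many proteasome genes were higher on the ketogenic diet than on the high-fat diet. Of the 39 members 20 rose, 0 fell and 19 did not pass, against 13.1% of all genes that rose and 13% that fell. At an unadjusted p under 0.05 in edgeR 23 were higher and 0 lower, and DESeq2 called 20 risen and 0 fallen. The median log2 difference, ketogenic over high-fat, was 0.17, a change of 12.8%, against -0.016 over all genes. It stayed above 0 under all 24 alternatives, at 0.15 to 0.51. Rises made up 50.1% of all calls in this comparison, 70.6% with total-count scaling and 96.2% on log2(TPM + 1), where the median of all genes was 0.21. In 12 members every ketogenic library lay above every high-fat library, which held for 9.3% of all genes. Since this comparison uses the same 5 high-fat libraries as the one with chow, the counts of 20 and 20 are not independent of each other.

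By role, 5 of 8 alpha subunits, 5 of 8 beta subunits, 5 of 6 ATPases and 5 of 11 non-ATPase subunits rose. No immunoproteasome subunit or ATPase-ring chaperone passed in edgeR or DESeq2 (0 and 1 at an unadjusted p under 0.05). Psma6, an alpha subunit, stood at 82.2, 79.7, 78.9, 83.7 and 82.1 CPM on chow, at 76.1, 71.5, 65.9, 67.8 and 62.6 CPM on the high-fat diet and at 86.1, 92.8, 87.9, 83.0 and 93.5 CPM on the ketogenic diet. All ketogenic libraries lay above all high-fat libraries (0.37 ± 0.057, adjusted p = 1.43e-04), and they overlapped with chow (0.12, adjusted p = 0.107). Psmb4 stood at 85.4, 68.7, 74.2, 70.9 and 79.3 CPM on chow, at 75.6, 67.5, 65.7, 55.4 and 57.0 CPM on the high-fat diet and at 86.0, 79.5, 82.0, 81.3 and 89.7 CPM on the ketogenic diet. Ketogenic and high-fat values did not overlap, while the chow values spanned the gap between them (0.38 ± 0.080, adjusted p = 0.00197). Psmd1 was higher without overlap (0.26 ± 0.048, adjusted p = 6.96e-04).

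Psmc3, the ATPase Rpt5, stood at 78.0, 74.6, 74.9, 75.2 and 77.0 CPM on chow, at 76.2, 65.4, 68.2, 62.9 and 63.0 CPM on the high-fat diet and at 83.2, 81.1, 84.2, 78.4 and 84.4 CPM on the ketogenic diet. The ketogenic libraries lay above all libraries of both other diets, by 0.29 ± 0.055, adjusted p = 8.61e-04, from the high-fat diet, but the difference from chow did not pass (0.12, adjusted p = 0.123). Psmc6, the ATPase Rpt4, stood at 76.3, 75.1, 88.5, 87.3 and 90.6 CPM on chow, at 75.1, 67.9, 63.5, 72.7 and 63.5 CPM on the high-fat diet and at 85.0, 89.2, 83.4, 85.0 and 86.8 CPM on the ketogenic diet. Ketogenic and high-fat libraries did not overlap, and chow libraries reached across both (0.33 ± 0.065, adjusted p = 0.00136). Psmd8, the lid subunit Rpn12, stood at 76.0, 69.4, 69.0, 66.4 and 66.5 CPM on chow, at 73.0, 65.5, 65.9, 60.5 and 60.2 CPM on the high-fat diet and at 79.2, 72.8, 83.3, 80.0 and 80.6 CPM on the ketogenic diet. Ketogenic library 3 lay just below high-fat library 9, so those diets overlapped by that pair (0.28 ± 0.061, adjusted p = 0.00250).

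Of the 20 calls between these diets, 7 were lost when 1 library was left out. Psma2 (0.24, adjusted p = 0.0313) did not pass without KD 2, KD 3, KD 8, HFD 11, HFD 12 or HFD 14 (adjusted p 0.0564 to 0.0844). Psma7 (0.24, adjusted p = 0.0214) did not pass without KD 8, HFD 12 or HFD 14 (adjusted p 0.0516 to 0.0598). Psmb2 (0.18, adjusted p = 0.0256) did not pass without KD 8, HFD 12 or HFD 14 (adjusted p 0.0675 to 0.0681). These 3 are core-particle subunits. Psmc2 (0.16, adjusted p = 0.0257) lost its call without KD 8, HFD 11, HFD 12 or HFD 14 (adjusted p 0.0544 to 0.0659). Psmc4 (0.17, adjusted p = 0.0308) lost its call without KD 2, KD 4, KD 8, HFD 11 or HFD 12 (adjusted p 0.0578 to 0.0865). Psmd13 (0.22, adjusted p = 0.0196) lost its call without HFD 12 or HFD 14 (adjusted p 0.0542 to 0.0564). Psmd7 (0.14, adjusted p = 0.0449) lost its call without KD 2, KD 3, KD 4, KD 6, KD 8, HFD 10, HFD 11, HFD 12 or HFD 14 (adjusted p 0.0627 to 0.0973). With protein-coding transcripts alone Psma2, Psmb2, Psmc2, Psmd7 and Psmd13 did not pass. The number that rose ran from 13 (without high-fat library 12) to 23 over these refits. Psma1, Psma5, Psma6, Psmb1, Psmb4, Psmb6, Psmb7, Psmc1, Psmc3, Psmc6, Psmd1, Psmd4 and Psmd8, 13 in all, passed in every alternative.

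Between the ketogenic diet and chow few members changed. Psmd9, Psmb8 and Psmd8 rose, 5 members fell (Psmd11, Psmd14, Psmd12, Psma5 and Psmd5), and 31 of 39 did not pass. Over all genes 16.2% rose and 14.6% fell. Libraries did not overlap for Psmc3 and Psmd9, higher on the ketogenic diet (12.2% of all genes), and for Psmd11, Psmd12 and Psmd14, lower (10.1% of all genes). The median log2 difference of members was -0.038, against -0.011 over all genes, and it changed sign with the scaling, to 0.036 with total-count scaling (all genes 0.062) and 0.26 on log2(TPM + 1) (all genes 0.21). With total-count scaling 10 members rose and 1 fell, and on log2(TPM + 1) 20 rose and 0 fell. Rises made up 52.6% of all calls in this comparison, 68.5% with total-count scaling and 93.3% on log2(TPM + 1). The values below, log2 of ketogenic over chow unless stated, therefore hold relative to TMM scaling.

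Psmd9, a chaperone of the ATPase ring, stood at 22.3, 21.04, 22.1, 20.8 and 18.6 CPM on chow, at 24.6, 22.1, 25.4, 23.6 and 22.1 CPM on the high-fat diet and at 24.2, 28.1, 30.5, 25.7 and 25.1 CPM on the ketogenic diet. Every ketogenic library lay above every chow library, in which the highest was 22.3 CPM, and the difference was 0.35 ± 0.071, adjusted p = 9.88e-04. It passed under every alternative, at 0.29 to 0.59. The high-fat libraries overlapped with both other diets. Psmd8 rose against chow as well (0.19 ± 0.061, adjusted p = 0.0254) but did not pass without KD 4, KD 6, KD 8, CD 18 or CD 19 (adjusted p 0.0511 to 0.0641), nor with the effective-length offset.

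Psmd11, the lid subunit Rpn6, stood at 116, 114, 122, 125 and 117 CPM on chow, at 102, 102, 101, 110.2 and 101 CPM on the high-fat diet and at 98.7, 99.2, 97.1, 100.2 and 104 CPM on the ketogenic diet. Ketogenic and high-fat libraries overlapped, and both lay below every chow library. The ketogenic difference was -0.25 ± 0.048, adjusted p = 5.57e-04, and that between ketogenic and high-fat -0.049, adjusted p = 0.489. Psmd14, the lid deubiquitinase Rpn11, stood at 48.1, 48.0, 55.9, 55.5 and 55.9 CPM on chow, at 46.5, 47.1, 39.3, 44.5 and 38.6 CPM on the high-fat diet and at 46.7, 44.4, 40.5, 44.1 and 47.3 CPM on the ketogenic diet. High-fat and ketogenic libraries all lay below the chow libraries (-0.24 ± 0.071, adjusted p = 0.0147). Psmd12, the lid subunit Rpn5, stood at 71.3, 67.7, 72.6, 74.4 and 80.9 CPM on chow, at 66.9, 61.7, 60.3, 62.7 and 60.9 CPM on the high-fat diet and at 62.2, 66.9, 65.5, 66.3 and 65.8 CPM on the ketogenic diet. The same order held, with every chow library the highest (-0.17 ± 0.054, adjusted p = 0.0239), although Psmd12 did not pass without KD 2 or CD 19 (adjusted p 0.0653 to 0.0665). Psma5 (-0.18, adjusted p = 0.0328) was not called without KD 2, KD 3, KD 4, KD 6, CD 15, CD 18 or CD 19 (adjusted p 0.0512 to 0.0838). Psmd5, another ATPase-ring chaperone (-0.17, adjusted p = 0.0453), was not called without KD 2, KD 4, KD 6, KD 8, HFD 10, HFD 11, CD 15, CD 17, CD 18 or CD 19 (adjusted p 0.0518 to 0.115). Psmd14 passed in each of those refits. On log2(TPM + 1), where the median of all genes moved to 0.21, the differences of Psmd11 (0.11), Psmd12 (0.17), Psmd14 (0.16), Psma5 (0.16) and Psmd5 (0.026) were above 0 and below that median. With total-count scaling none of Psmd12, Psmd14, Psma5 and Psmd5 passed, and with the effective-length offset none of Psmd12, Psmd14 and Psma5 did.

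The catalytic pairs were compared as ratios within a library, which no scaling of libraries can move. Psmb8, the chymotrypsin-like subunit of the immunoproteasome, stood at 13.7, 11.2, 10.9, 13.3 and 11.5 CPM on chow, at 14.6, 15.2, 14.2, 11.9 and 12.4 CPM on the high-fat diet and at 16.6, 12.8, 16.9, 14.1 and 15.8 CPM on the ketogenic diet. The 3 diets overlapped. Psmb8 rose on the ketogenic diet against chow (0.33 ± 0.092, adjusted p = 0.0108), and its other differences did not pass (0.18, adjusted p = 0.215 for high-fat against chow). Counting only protein-coding transcripts, the ketogenic difference was 0.31 (adjusted p = 0.0517). Psmb5, its constitutive counterpart, stood at 54.4, 44.5, 44.8, 43.1 and 50.6 CPM on chow, at 44.6, 42.0, 41.4, 34.1 and 35.0 CPM on the high-fat diet and at 46.8, 38.2, 42.9, 39.5 and 46.3 CPM on the ketogenic diet. Ketogenic values overlapped with both other diets (-0.15, adjusted p = 0.200 against chow). Psmb8 reads per 100 Psmb5 reads were 25.1, 25.2, 24.3, 30.9 and 22.7 on chow, 32.7, 36.1, 34.3, 35.0 and 35.5 on the high-fat diet and 35.4, 33.6, 39.3, 35.6 and 34.0 on the ketogenic diet. Every library of either of these diets lay above every chow library.

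The log2 ratio of Psmb8 to Psmb5 was 0.48 ± 0.084 (SE) higher on the ketogenic diet than on chow, 1.39-fold (two-sided exact permutation test, p = 0.00794, adjusted over 9 ratio tests p = 0.0357). On the high-fat diet it was 0.44 ± 0.078 higher than on chow, 1.36-fold (exact p = 0.00794, adjusted p = 0.0357). That p is the smallest which 5 against 5 libraries can give. Ketogenic and high-fat ratios differed by 0.034 ± 0.047 (exact adjusted p = 0.704). Both comparisons with chow share the chow libraries. The ratio of TPM gave 0.42 and 0.45, and protein-coding transcripts alone 0.49 and 0.46, with the same adjusted p. Without 1 library they ran from 0.44 to 0.55 and from 0.40 to 0.51, where the smallest exact p is 0.0159. The adjusted p was then 0.0714 without KD 3, KD 4, KD 6 or KD 8 in the first and without HFD 9, HFD 10, HFD 11 or HFD 14 in the second.

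Psmb9, which takes the place of Psmb6, stood at 8.38, 5.24, 4.77, 6.07 and 4.94 CPM on chow, at 6.51, 5.98, 5.15, 4.23 and 5.87 CPM on the high-fat diet and at 6.40, 4.82, 5.29, 5.21 and 5.71 CPM on the ketogenic diet. All 3 diets overlapped and no difference passed. Psmb6 stood at 65.8, 54.4, 57.2, 51.3 and 64.7 CPM on chow, at 55.9, 49.4, 49.2, 41.8 and 40.5 CPM on the high-fat diet and at 61.5, 54.9, 54.9, 59.5 and 61.2 CPM on the ketogenic diet. High-fat libraries 12 and 14 were the lowest of all. Psmb9 reads per 100 Psmb6 reads were 12.7, 9.63, 8.33, 11.8 and 7.64 on chow, 11.7, 12.1, 10.5, 10.1 and 14.5 on the high-fat diet and 10.4, 8.79, 9.64, 8.75 and 9.33 on the ketogenic diet. The highest was high-fat library 14, and ketogenic values overlapped with high-fat values. The log2 ratio was -0.32 ± 0.10 on the ketogenic against the high-fat diet (exact permutation p = 0.0159, adjusted p = 0.0476). From TPM it was -0.26 (exact adjusted p = 0.200), from protein-coding transcripts -0.33 (exact adjusted p = 0.0536), and it ran from -0.37 to -0.24 with 1 library left out. It passed without KD 2 or HFD 12 and did not pass without KD 3, KD 4, KD 6, KD 8, HFD 9, HFD 10, HFD 11 or HFD 14 (exact adjusted p = 0.0952 in each). High-fat against chow gave 0.25 ± 0.17 (exact adjusted p = 0.417). From TPM it was 0.26 (exact adjusted p = 0.298), and from protein-coding transcripts alone 0.60 (exact adjusted p = 0.0536), so its size depended on the transcripts counted.

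Psmb10, which takes the place of Psmb7, stood at 15.1, 14.0, 11.4, 11.3 and 13.5 CPM on chow, at 12.1, 11.3, 12.1, 10.7 and 10.8 CPM on the high-fat diet and at 14.6, 11.4, 14.1, 11.6 and 12.9 CPM on the ketogenic diet. Psmb7 stood at 114, 94.9, 100.1, 94.8 and 107 CPM on chow, at 103, 94.1, 92.5, 85.2 and 80.7 CPM on the high-fat diet and at 108, 105, 108, 103 and 119 CPM on the ketogenic diet. The diets overlapped for both genes. Psmb7 rose on the ketogenic against the high-fat diet (0.25 ± 0.071, adjusted p = 0.0130). Psmb10 reads per 100 Psmb7 reads ran from 11.4 to 14.8 on chow, from 11.8 to 13.4 on the high-fat diet and from 10.8 to 13.4 on the ketogenic diet. The log2 ratio differed by -0.11 ± 0.093 for ketogenic against chow, by -0.020 ± 0.073 for high-fat against chow and by -0.087 ± 0.076 for ketogenic against high-fat, none past the exact test (lowest adjusted p = 0.417). Immune cells also carry these subunits. Between ketogenic and chow 0 of 5 leukocyte markers passed in edgeR, in DESeq2 or at an unadjusted p under 0.05, 3 of 4 B cell markers fell (summed 0.955 to 2.65 CPM on chow, 1.04 to 1.62 CPM on the high-fat diet and 0.638 to 0.903 CPM on the ketogenic diet), and 1 of 8 Kupffer and myeloid markers (Lyz2) fell. In that comparison 1 Kupffer and myeloid marker was higher at an unadjusted p under 0.05 in edgeR, and 1 with DESeq2's adjusted p. Between ketogenic and high-fat 2 of 5 leukocyte markers (Cd53 and Laptm5) and 2 of 8 Kupffer and myeloid markers (Vsig4 and Cd5l) rose. The part of these cells in the ratios was not tested.

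**Figure D4:**
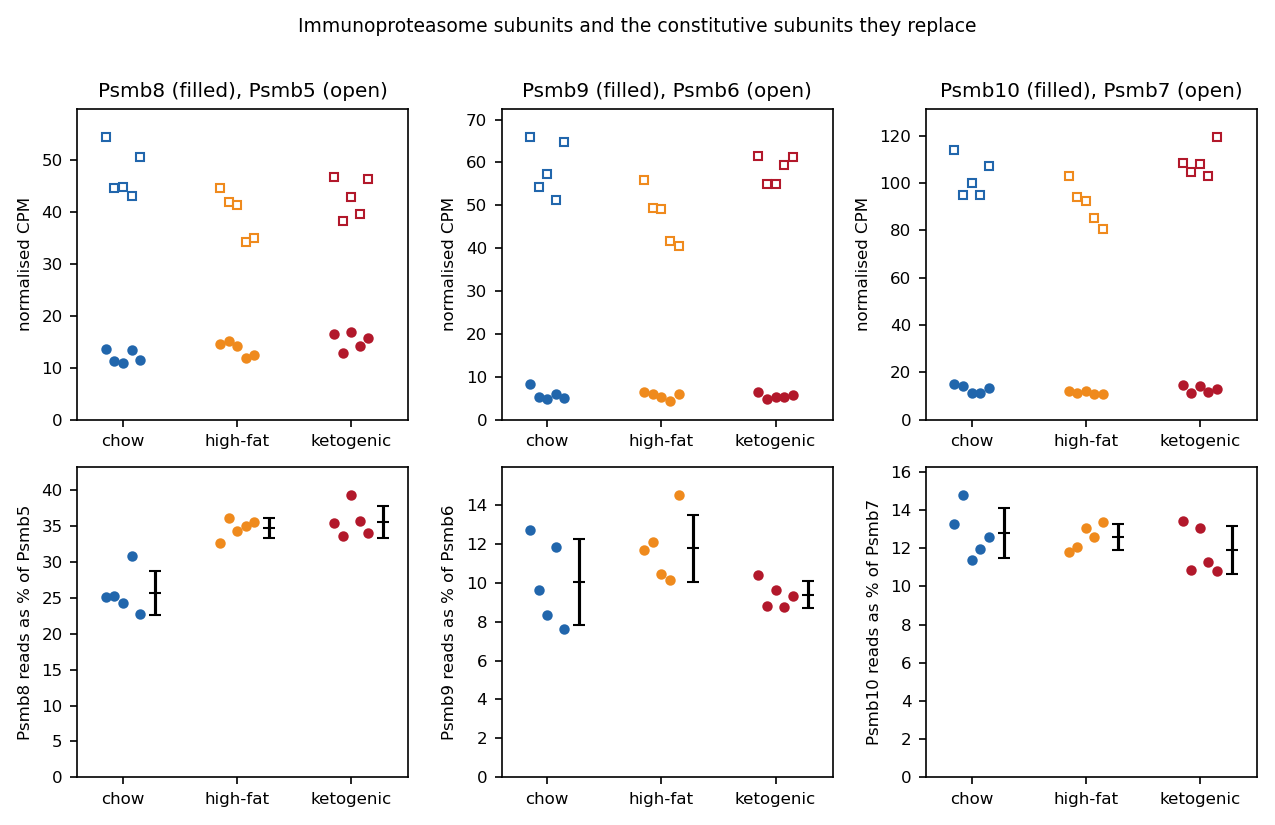
Upper panels, CPM of each immunoproteasome subunit and its constitutive counterpart in every library by diet. Lower panels, reads of the immunoproteasome subunit per 100 reads of the counterpart, with 1 point per library and the mean ± SD in black beside them, where Psmb8 to Psmb5 lies between 22.7 and 30.9 on chow and between 32.7 and 39.3 on the other diets.

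Other genes of the pathway were taken from 6 lists, with differences in log2 as before. For comparison, 16.2% of all genes tested rose and 14.6% fell on the ketogenic diet against chow. On the high-fat diet against chow 8.3% rose and 7.32% fell, and between ketogenic and high-fat 13.1% rose and 13% fell. Of 8 transcription factors of proteasome genes and their processing enzymes, 3 rose and 0 fell on the ketogenic diet against chow, 3 rose and 0 fell on the high-fat diet, and 2 rose and 1 fell between ketogenic and high-fat. Nfe2l1, the factor that drives proteasome genes, stood at 98.6, 99.7, 106, 100.2 and 87.4 CPM on chow, at 109, 116, 119, 131 and 120.1 CPM on the high-fat diet and at 168, 165, 146, 136 and 148 CPM on the ketogenic diet. Every ketogenic library lay above every high-fat library, and every high-fat library above every chow library. Differences were 0.63 ± 0.070, adjusted p = 2.26e-06, for ketogenic and 0.28 ± 0.070, adjusted p = 0.0117, for high-fat against chow. Ddi2, its activating protease, stood at 195, 212, 241, 218 and 203 CPM on chow, at 259.8, 283, 292, 348 and 309.8 CPM on the high-fat diet and at 319, 326, 303, 305 and 307 CPM on the ketogenic diet. Both diets lay above chow (0.54 ± 0.075, adjusted p = 2.29e-05, for ketogenic and 0.48 ± 0.075, adjusted p = 3.79e-04, for high-fat). These genes were thus higher on the high-fat diet, where 20 subunits were lower. Maff rose on the ketogenic diet (0.76, adjusted p = 0.0165) and Mafg on the high-fat diet (0.44, adjusted p = 0.00385), both small partners of such factors, but Maff did not pass without KD 4 (adjusted p = 0.0608). On log2(TPM + 1) Nfe2l1, Ddi2 and Mafg did not pass between high-fat and chow. Nfe2l2 (NRF2) passed in no comparison (-0.13, adjusted p = 0.472 for ketogenic against chow).

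Of 10 core assembly and activator genes, 0 rose and 2 fell in ketogenic livers, 0 rose and 1 fell in high-fat livers, and 1 rose and 1 fell between these diets. Psme1, a subunit of the activator cap that opens the core without ubiquitin, stood at 87.1, 69.7, 71.3, 75.7 and 80.3 CPM on chow, at 61.6, 63.4, 56.3, 51.9 and 49.2 CPM on the high-fat diet and at 72.8, 69.1, 71.0, 67.9 and 79.3 CPM on the ketogenic diet. High-fat libraries lay below all others (-0.44 ± 0.077, adjusted p = 9.82e-04), and ketogenic values overlapped with chow (-0.093, adjusted p = 0.391). Its partner Psme2 did not pass (-0.20, adjusted p = 0.0829). The assembly chaperones Psmg2 (-0.32, adjusted p = 0.00585) and Psmg1 (-0.28, adjusted p = 0.0416) fell on the ketogenic diet. Psmg1 did not pass without KD 2, KD 3, KD 4, KD 8, CD 15, CD 16 or CD 19, and on log2(TPM + 1) neither did (0.049 and 0.0033 for Psmg1 and Psmg2). Pomp, which completes the core, did not pass (0.063, adjusted p = 0.577).

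Of 12 genes of proteasome-associated ubiquitin handling, 3 rose and 2 fell in ketogenic livers, 1 rose and 2 fell in high-fat livers, and 4 rose and 1 fell between these diets. The ubiquitin ligase Ube3c rose on the ketogenic diet (0.32, adjusted p = 4.95e-05), while the deubiquitinase Uchl5 (-0.24, adjusted p = 0.00433) and the thioredoxin-like Txnl1 (-0.35, adjusted p = 0.00426) fell. Txnl1 fell on the high-fat diet too (-0.53, adjusted p = 5.86e-04). On log2(TPM + 1) Uchl5 (0.039) and Txnl1 (-0.0083) did not pass between ketogenic and chow, nor did Rps27a (0.035), which is described next, and Uchl5 did not pass with total-count scaling. Of 6 ubiquitin and activating-enzyme genes, 2 rose and 1 fell in ketogenic livers, 0 rose and 1 fell in high-fat livers, and 1 rose between these diets. Ubb, a polyubiquitin gene, stood at 289, 290.4, 285, 228 and 245 CPM on chow, at 290.4, 284, 322, 274 and 308 CPM on the high-fat diet and at 531, 483, 544, 476 and 441 CPM on the ketogenic diet. Every ketogenic library lay above all others, by 0.89 ± 0.081, adjusted p = 2.21e-07, from chow. Rps27a, which encodes ubiquitin fused to a ribosomal protein, fell on both diets (-0.33, adjusted p = 0.00769 for ketogenic and -0.38, adjusted p = 0.00802 for high-fat).

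Of 5 genes of the Vcp segregase, which extracts ubiquitin-tagged proteins, 0 rose and 2 fell on each diet against chow, and 0 rose and 1 fell between ketogenic and high-fat. Ubxn1, a Vcp cofactor, fell on the ketogenic diet (-0.49 ± 0.059, adjusted p = 5.86e-06), while Vcp itself did not pass (-0.069, adjusted p = 0.343). With limma on log2(TPM + 1) Ubxn1 did not pass (adjusted p = 0.192). Of 10 antigen-processing genes, which handle the peptides that proteasomes make, 3 rose and 0 fell in ketogenic livers against chow. In high-fat livers 0 passed in edgeR or DESeq2 (2 higher and 1 lower at an unadjusted p under 0.05), and 4 rose and 0 fell between ketogenic and high-fat. H2-D1, an MHC class I chain, was 0.39 ± 0.082, adjusted p = 0.00129, higher on the ketogenic diet than on chow. Nlrc5, the activator of class I genes (0.46, adjusted p = 0.00135), and Erap1, which trims peptides (0.31, adjusted p = 1.54e-04), rose as well. Nlrc5 did not pass with the effective-length offset (0.20, adjusted p = 0.177). Tap1, the peptide transporter gene that shares a promoter region with Psmb9, passed in no comparison (-0.13, adjusted p = 0.402 for ketogenic against chow).

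**Figure D5:**
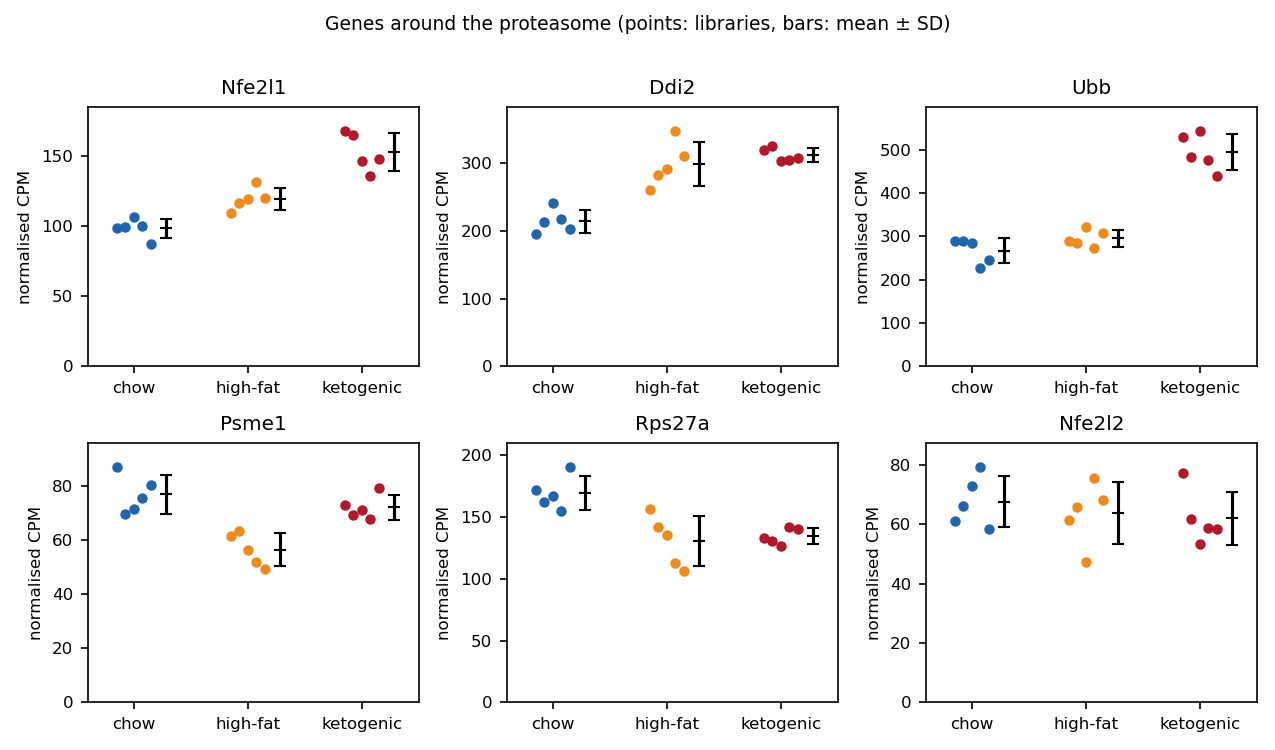
CPM in every library by diet for pathway genes outside the subunit families, with 1 point per library and the mean ± SD in black beside them. Nfe2l1, Ddi2 and Ubb have their lowest diet mean on chow, and Psme1 has its lowest values, 49.2 to 63.4 CPM, on the high-fat diet.

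Reads of several members lay on transcripts that encode no full subunit. Psmb8-205, a retained-intron transcript, held 50.1 ± 4.08% of Psmb8 reads on chow, 49.9 ± 2.08% on the high-fat diet and 53.3 ± 4.19% on the ketogenic diet (SD, n = 5). A Psmd13 transcript marked for nonsense-mediated decay held 40.8, 39.5 and 42.9% of Psmd13 reads on average in the same order. On chow the retained-intron transcripts Psma3-203 and Psmb4-202 held 16.3 ± 1.45% of Psma3 reads and 25.6 ± 1.38% of Psmb4 reads. The TPM levels given above were summed over all transcripts of a gene and include such transcripts. With protein-coding transcripts alone 19 members fell on the high-fat diet and 15 rose between ketogenic and high-fat. Some members share sequence with other genes: 10.5% of the 31-base words of Psmb7 transcripts also occur in another gene, mostly Nek6. The share was 9.87% for Psmc2, over 801 other genes, 8.71% for Psmd13, in Sirt3, and 7.08% for Psmd1. It was 5.87% for Psmc3, in Slc39a13, and 4.79% for Psmb9, in Tap1. The sources used here do not state the strand setting of the read assignment, so reads of such overlapping genes may have been divided between them.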

How the data were processed

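Per the submitters' processing notes, reads were trimmed with Trimmomatic 0.36 and assigned to transcripts with kallisto 0.44, and edgeR 3.28 was named, on build GRCm38.p6. The sources used here do not state settings, batch or strand. The deposited tables give, per the file headers, an estimated count and a TPM value per transcript. Estimated counts were summed over the transcripts of each GENCODE M21 gene (105734 of 106332 transcripts matched) and then rounded. Transcripts without a match (598) were not used, nor their 0.184 to 0.223% of reads.

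Genes were kept by filterByExpr (minimum count 10, total 15). edgeR 4.0.16 (R 4.3.3) fitted all 15 libraries together with TMM scaling and robust quasi-likelihood tests, and p-values were adjusted by Benjamini-Hochberg over 13967 genes. SEs are the log2 difference divided by the square root of F. Ratios of catalytic pairs were tested by two-sided exact permutation over libraries (SciPy 1.17.1). The code was tested on simulated data. Alternatives were DESeq2 1.42.0, RLE size factors, total-count scaling, other filters, protein-coding transcripts alone, limma 3.58.1 on log2(TPM + 1), 2 diets at a time, 1 library left out, and, chosen after seeing the data, an effective-length offset.

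The members and the lists were chosen with earlier results of these data known. All members may be named, and values in every library are given for the 6 with the smallest adjusted p in each comparison and for Psmb5 to Psmb10. Outside that rule, Nfe2l1, Ddi2, Ubb and Psme1 were given in every library after their values were seen, and the listed genes named singly were chosen in the same way. List entries whose symbol is not in the annotation used (1 of 11 for core assembly and activators, 2 of 14 for ubiquitin handling, 1 of 6 for the Vcp segregase) were left out, and 2 of 6 T and NK cell markers had too few reads to test. No protein sequences were used here, and 1 tested gene of the lists, included in the counts, is not named here.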

Additional observations from a re-analysis of the deposited data

Results flagged for a closer look

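Within a diet, 9 of 126 groups of 5 libraries had a library whose gap to its nearest neighbour took more than 0.71 of the group's range (Dixon's test at the 95% level), and chance flags about 1 in 20. In the high-fat group library 9 was the highest for Psmc2, at 72.1 CPM with the next at 66.9, and for Psmd5, at 34.6 CPM with the next at 30.1. High-fat library 12 was the highest for Psmd11, at 110 CPM with the next at 102. In the ketogenic group library 8 had 67.2 CPM of Psma7 (next 62.5), library 4 had 8.35 CPM of Psmd10 (next 7.84) and library 2 had 62.9 CPM of Psmd7 (next 61.0). Ketogenic library 2 was the lowest for Psmd12, at 62.2 CPM, below 65.6. On chow library 15 had 8.91 CPM of Psmd10 (next 7.92), and library 16 was the lowest for Psmd5, at 30.1 CPM, below 33.3.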

How the results depend on the processing

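No paired analysis was possible because no replicate number recurs between diets. With limma on log2(TPM + 1), 20 members rose and 0 fell on the ketogenic diet against chow, 4 fell on the high-fat diet against chow, and 33 rose between ketogenic and high-fat. The member medians less the all-gene medians there were 0.054, -0.20 and 0.29. For ketogenic against chow, total-count scaling gave 10 risen and 1 fallen, no filter gave 2 fallen, and the effective-length offset 3 fallen. Leaving out 1 library gave 2 to 3 risen and 3 to 6 fallen for ketogenic against chow (3 without KD 2, 4 or 6 or CD 15, 18 or 19). It gave 0 risen and 16 to 27 fallen for high-fat against chow, and 13 to 23 risen and 0 fallen for ketogenic against high-fat. With the other settings (DESeq2, RLE, minimum count 50, 2 diets only, protein-coding transcripts) the 6 counts stayed within 1.5 times of their values.

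On log2(TPM + 1) the sign differed for 26 of 39 members between ketogenic and chow, of which 14 passed the test neither there nor with TMM scaling and 12 passed in at least 1 of these fits: Psma1 0.32, Psma2 0.25, Psma3 0.25, Psma5 0.16, Psmb6 0.29, Psmc5 0.31, Psmd5 0.026, Psmd6 0.29, Psmd7 0.34, Psmd11 0.11, Psmd12 0.17 and Psmd14 0.16. Between ketogenic and high-fat it differed for 4 members, of which Psmd11 (0.29) passed. Between ketogenic and chow it differed for 8 of the 19 listed genes named. Of these, Psmg1 (0.049), Psmg2 (0.0033), Rps27a (0.035) and Uchl5 (0.039) passed with TMM scaling but not on log2(TPM + 1). Vcp (0.28) passed on log2(TPM + 1) but not with TMM scaling. With total-count scaling it differed for 10 members between ketogenic and chow, none of which passed in either fit. The cause was not tested. Calls kept under every alternative numbered 3 of 20 for high-fat against chow (Psma4, Psma5 and Psmc1), 1 of 8 for ketogenic against chow (Psmd9) and 13 of 20 for ketogenic against high-fat.

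The log2 ratio of Psmb9 to Psmb6, ketogenic against high-fat, was -0.26 from TPM and -0.33 from protein-coding transcripts, and -0.37 to -0.24 with 1 library left out. That of Psmb8 to Psmb5 ran from 0.44 to 0.55 (ketogenic) and from 0.40 to 0.51 (high-fat against chow) with 1 left out, its exact adjusted p reaching 0.0714. Psma8 and Psmb11 had too few reads for their diet differences to be read.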

Other observations

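Marker lists of other liver cells were read for their levels only. Of 5 erythroid markers all 5 fell on the ketogenic diet against chow, 0 passed on the high-fat diet in edgeR or DESeq2 (1 lower at an unadjusted p under 0.05), and Alas2 fell between ketogenic and high-fat. Their summed level was 735 to 1076 CPM on chow, 399 to 1167 CPM on the high-fat diet and 338 to 555 CPM on the ketogenic diet. None of 4 MHC class II markers passed in edgeR, in DESeq2 or at an unadjusted p under 0.05. None of 4 endothelial markers passed edgeR's test in any comparison, while 2 were higher on the ketogenic and 1 on the high-fat diet than on chow at an unadjusted p under 0.05, and DESeq2 called 1 on each. Of 4 stellate markers Dcn rose on the ketogenic diet against both others, and of 4 cholangiocyte markers Sox9 fell between ketogenic and high-fat. Of 4 T and NK cell markers tested Cd3d fell on the ketogenic diet against both others. These cells' part in the proteasome differences was not tested.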
